A study of Homo sapiens with 8 samples.

Results

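STC1, STC2, ADM2, GDF15, FGF21 and FGF19 are 6 genes for hormones and hormone-like proteins that liver cells can secrete under stress. They were taken by gene symbol from a count table of 15767 genes and an FPKM table of 19799 genes, after the set had been chosen by its measured values in the comparison described here. The levels and changes of the 6 genes are therefore a description, with no test. Intervals given for them take no account of that choice. Of the 6, 5 had a row in the count table and 4 passed the filter of at least 10 counts in at least 4 libraries (STC2, ADM2, GDF15 and FGF19). The study asked how ginsenoside Rk2, a saponin of processed ginseng, affects hepatocytes injured by ischemia and reperfusion.

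The cells were HuH7, an established human hepatoma line with epithelial-like growth, labelled as wild type. All 8 samples went through oxygen-glucose deprivation and reperfusion (OGD/R), which here meant 6 h at 1% oxygen in medium without glucose and then a return to normal oxygen. During 6 h of reoxygenation, 4 samples received the solvent DMSO (OGD/R+DMSO) and 4 received 20 µM Rk2 (OGD/R+Rk2). Both groups had thus been through deprivation, so the comparison is of Rk2 with its solvent in injured cells, in 1 cell line. The labels do not say that the 4 samples of a group were separate cultures, and p-values below measure the spread between these samples, which may be technical.

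Total counts ran from 18428485 to 21447045 in the OGD/R+DMSO libraries and from 16374082 to 30310479 in the OGD/R+Rk2 libraries. All 8 hepatoma markers examined (albumin and alpha-fetoprotein among them) were above 0, with a summed level of 4625 to 5118 FPKM in OGD/R+DMSO and 4964 to 5110 FPKM in OGD/R+Rk2. Of 10 markers of leukocytes, endothelial and stellate cells, 6 were listed at 0 in every library (PTPRC, CD163, VWF, CDH5, LRAT and DCN). The summed level of the list was 33.8 to 39.6 FPKM in OGD/R+DMSO and 29.9 to 39.7 FPKM in OGD/R+Rk2. Most of that sum was CD68, at 26.7 to 32.4 FPKM in OGD/R+DMSO and 24.1 to 32.6 FPKM in OGD/R+Rk2. COL1A2 (3.52 to 5.69 FPKM over all libraries), PECAM1 (1.07 to 2.10) and COL1A1 (0 to 0.684) made up the rest. OGD/R+DMSO replicate 1 stood apart on the second principal component, at 78.7 against -48.6 to -41.4 in the other OGD/R+DMSO libraries. Without it the log2 changes were 1.50 for STC2, 1.49 for ADM2, 0.76 for GDF15 and 0.34 for FGF19.

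Secreted proteins of this kind carry a signal of cell stress to other organs. ATF4, the transcription factor whose translation rises when the integrated stress response slows general protein synthesis, is known to act on the genes of several of them, among them FGF21, GDF15 and STC2. Stanniocalcins 1 and 2 are related glycoproteins, and stanniocalcin 2 blocks the protease PAPP-A and so keeps insulin-like growth factors bound to their carrier. ADM2 (intermedin) and its relative adrenomedullin (ADM) act on CALCRL with a RAMP partner, GDF15 acts on GFRAL with RET in the hindbrain, and FGF19 and FGF21 act on FGF receptors with the co-receptor KLB.

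STC2 had 52.0, 52.8, 55.2 and 50.5 CPM (read counts scaled to library size by the TMM method) in OGD/R+DMSO replicates 1 to 4. In OGD/R+Rk2 replicates 1 to 4 it had 149, 148, 153 and 149 CPM. The ranges were far apart and each group was narrow, with a coefficient of variation of 3.71% in OGD/R+DMSO and 1.35% in OGD/R+Rk2. The means were 52.6 ± 1.95 and 150 ± 2.03 CPM (SD, n = 4 each). The fitted change was 2.85-fold, or 1.51 on the log2 scale (SE 0.0401, 95% interval 1.42 to 1.60). Among the 12910 genes tested, 37 had a larger positive log2 change. In these bulk samples, more cells with the transcript and more of it per cell cannot be told apart.

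ADM2 had 17.1, 16.4, 18.3 and 16.6 CPM in OGD/R+DMSO replicates 1 to 4. In OGD/R+Rk2 it had 45.8, 45.4, 53.3 and 48.3 CPM. The groups did not overlap, and replicate 3 was the highest library within each of them. The means were 17.1 ± 0.873 and 48.2 ± 3.64 CPM (SD, n = 4 each), a change of 2.82-fold or 1.49 on the log2 scale (SE 0.0704, 95% interval 1.33 to 1.65). A larger log2 change was seen in 42 genes. The change of ADM2 differed from that of STC2 by less than the standard error of either.

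GDF15, a distant member of the TGF-beta family that lowers appetite, had 359, 321, 320 and 275 CPM in OGD/R+DMSO replicates 1 to 4. Under Rk2 it had 508, 542, 529 and 488 CPM. The lowest treated library lay above the highest control library, although the control libraries were spread more widely than those of STC2 (coefficient of variation 10.8%). The means were 319 ± 34.3 and 517 ± 23.9 CPM (SD, n = 4 each), which is 1.62-fold or 0.70 on the log2 scale (SE 0.0779, 95% interval 0.52 to 0.88). A larger log2 change was seen in 408 genes.

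FGF19, a bile acid-induced hormone that represses bile acid synthesis and that many hepatoma cells make, had 23.0, 24.0, 20.4 and 19.5 CPM in OGD/R+DMSO replicates 1 to 4. Under Rk2 it had 27.2, 27.3, 26.9 and 26.4 CPM. The treated libraries were close together and all lay above the control libraries, which ranged over more than 4 CPM. The means were 21.7 ± 2.14 and 26.9 ± 0.396 CPM (SD, n = 4 each), a change of 1.24-fold or 0.31 on the log2 scale (SE 0.0752, 95% interval 0.14 to 0.48). A larger log2 change was seen in 1963 genes, so FGF19 was the smallest change of the 4 measured hormones.

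**Figure D1:**
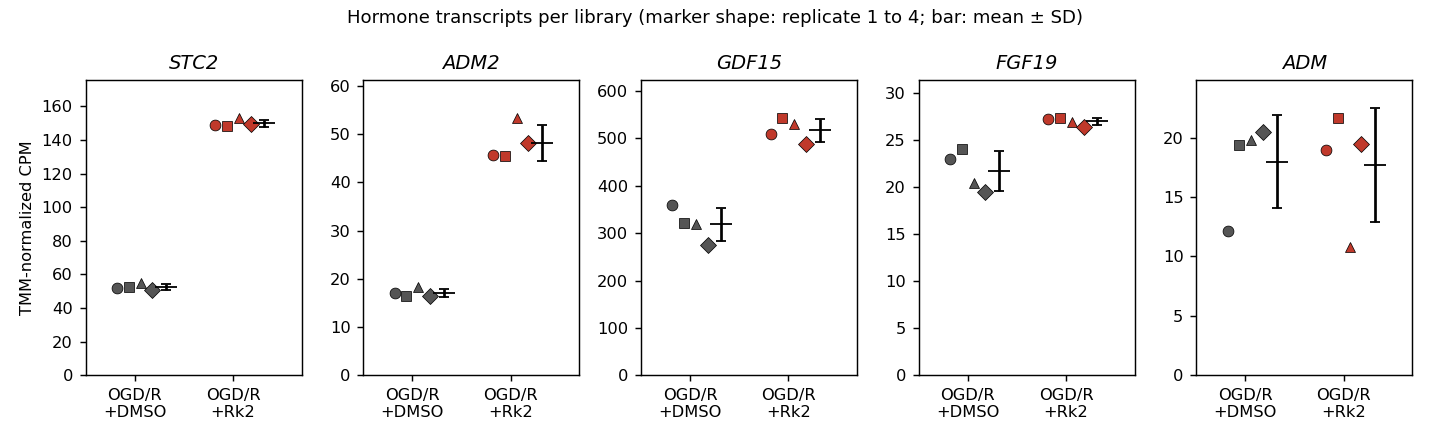
TMM-normalized CPM of STC2, ADM2, GDF15, FGF19 and the ADM2 relative ADM in each library (y axis, from 0), by group (x axis). Points are libraries with a marker shape per replicate number and bars are the mean ± SD of 4 libraries; the treated libraries lie above all control libraries for the first 4 genes, while for ADM (12.2 to 20.5 against 10.8 to 21.6 CPM) they overlap.

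In all 4 measured hormones every treated library lay above every control library, as it did in 15.4% of the 12910 genes. Since the hormones were selected on this contrast, nothing is read from their count. By edgeR's quasi-likelihood test at an adjusted p below 0.05, 11% of all genes were called higher and 7.24% lower, which is the background for the gene lists that follow. Those lists were chosen with earlier results of these data known, so their counts are a description as well.

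The related genes were not measured alike. STC1 had no row in the count table and was listed at 0 FPKM in all 8 libraries, so no ratio of STC2 to STC1 can be formed. FGF21, a fasting and stress hormone, had 0 counts in each of the 4 OGD/R+DMSO libraries and 0, 3, 0 and 2 counts in OGD/R+Rk2 replicates 1 to 4. Both groups therefore lay at or close to nothing, with only 2 treated libraries holding any read.

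For the FGF21 count of 0 among 80475847 in OGD/R+DMSO, a floor of 3 counts was set, which is 0.0373 CPM over the group. The 5 of 84895681 counts in OGD/R+Rk2 correspond to 0.0589 CPM (exact 95% Poisson interval 0.0191 to 0.137, counting error only), and a change of FGF21 was not detectable at this depth. FGF19 had 1728 counts over the OGD/R+DMSO libraries, 576 times the floor of 3 counts set for FGF21. That floor is a chosen setting, not an exact interval like those given for OGD/R+Rk2. In OGD/R+Rk2, FGF19 had 2312 counts, 462 times those of FGF21 (exact 95% interval 198 to 1425). These are ratios of counts, which are not scaled by gene length (2447 exonic bases for FGF19 and 1315 for FGF21 in the annotation).

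For the adrenomedullin pair a contrast within each library was possible. ADM itself, a vasodilator peptide induced by hypoxia, had 12.2, 19.4, 19.8 and 20.5 CPM in OGD/R+DMSO replicates 1 to 4 and 18.9, 21.6, 10.8 and 19.5 CPM in OGD/R+Rk2. The groups overlapped, each with 1 low library, and the log2 difference of -0.02 did not pass edgeR's test (SE 0.241, 95% interval -0.58 to 0.54, adjusted p = 0.97). The direction of the ADM difference turned on single libraries: it was -0.17 without OGD/R+DMSO replicate 1 and 0.15 without OGD/R+Rk2 replicate 3.

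The ratio of ADM2 counts to ADM counts was 1.41, 0.847, 0.925 and 0.808 in OGD/R+DMSO replicates 1 to 4. In OGD/R+Rk2 it was 2.42, 2.10, 4.95 and 2.48. The groups did not overlap, and the highest value belonged to the library with the lowest ADM level. The mean log2 ratio was -0.04 ± 0.365 and 1.49 ± 0.555 (SD, n = 4 each), a difference of 1.53, which was 1.26 without OGD/R+Rk2 replicate 3. Per gene length, ADM2 stood at 0.367 ± 0.0756 of ADM in OGD/R+DMSO and at 1.18 ± 0.368 of it in OGD/R+Rk2 (FPKM ratio, SD, n = 4 each).

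**Figure D2:**
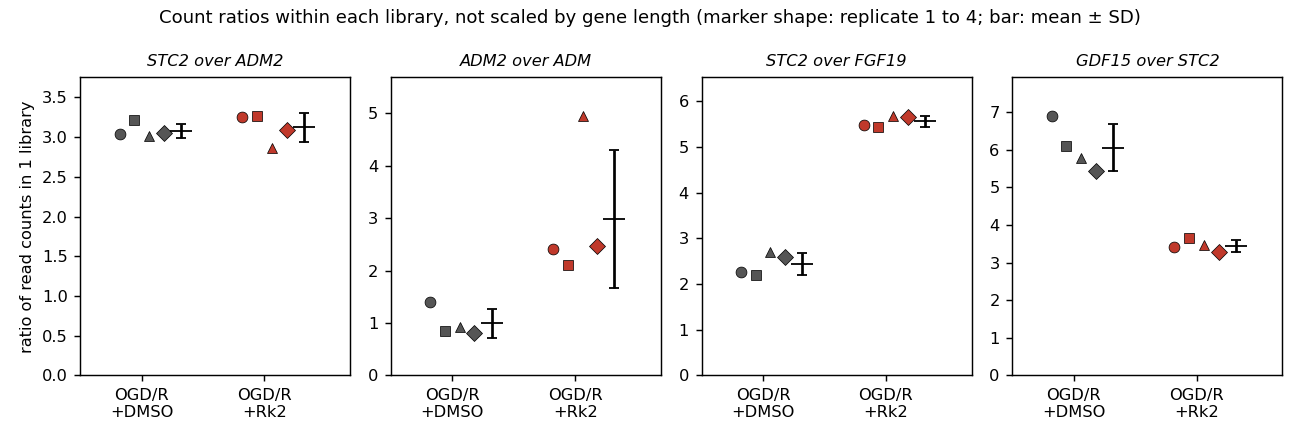
Ratios of read counts of gene pairs within each library (y axis, from 0, not scaled by gene length), by group (x axis), with a marker shape per replicate number and the mean ± SD of 4 libraries. STC2 over ADM2 covers 3.01 to 3.21 in OGD/R+DMSO and 2.87 to 3.27 in OGD/R+Rk2, whereas the other ratios separate the groups, GDF15 over STC2 falling and the remaining pair of ratios rising.

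The other pairs, chosen after their values were seen, describe how unequally the hormones moved. STC2 counts over ADM2 counts were 3.01 to 3.21 in OGD/R+DMSO and 2.87 to 3.27 in OGD/R+Rk2, so these ranges overlapped (difference of mean log2 ratios 0.02). STC2 over FGF19 was 2.2 to 2.71 in OGD/R+DMSO and 5.43 to 5.68 in OGD/R+Rk2. GDF15 over STC2 was 5.44 to 6.89 in OGD/R+DMSO and 3.27 to 3.66 in OGD/R+Rk2. In both of these ratios every treated library lay beyond all control libraries, while for STC2 over ADM2 only OGD/R+Rk2 replicates 1 and 2 (3.26 and 3.27) lay above the control range and replicate 3 (2.87) lay below it.

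Per gene length, the order of the levels in OGD/R+DMSO was GDF15 at 221 ± 21.7 FPKM, STC2 at 10.4 ± 0.421, FGF19 at 7.32 ± 0.703 and ADM2 at 3.30 ± 0.171 (SD, n = 4 each). No neighbours in this order overlapped between libraries. GDF15 ranked 303 among the 15270 genes with a mean FPKM above 0 in that group, and ADM2 ranked 9165. FGF21 and STC1 were listed at 0.

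In OGD/R+Rk2 the order was GDF15 at 367 ± 17.1 FPKM, STC2 at 30.1 ± 1.49, ADM2 at 9.95 ± 1.24 and FGF19 at 9.31 ± 0.106 (SD, n = 4 each). ADM2 (8.95 to 11.5 FPKM) and FGF19 (9.18 to 9.43 FPKM) could not be ordered, since their libraries overlapped. Among the 15334 genes with a mean above 0, GDF15 ranked 152, STC2 moved from rank 5833 to rank 2699, and ADM2 moved to rank 6194. FGF21 was listed above 0 in 2 treated libraries, with a group mean of 0.033 FPKM, and STC1 stayed at 0.

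**Figure D3:**
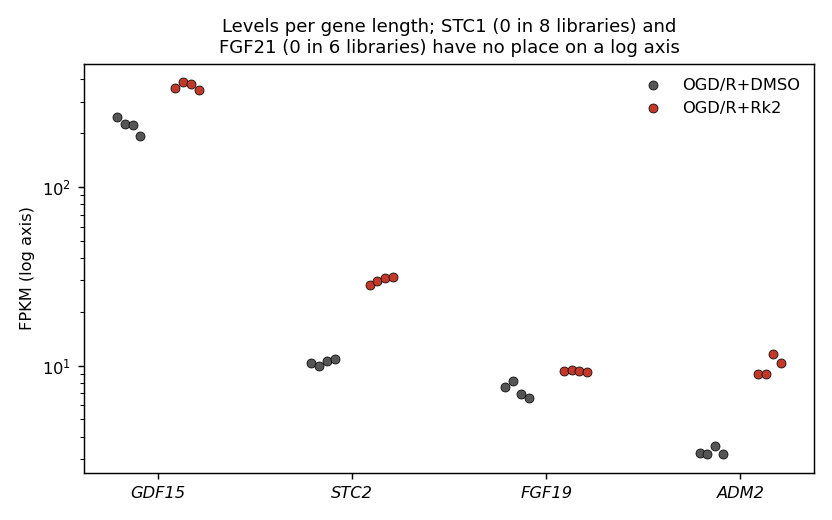
FPKM of GDF15, STC2, FGF19 and ADM2 in each library (y axis, log scale), grey for OGD/R+DMSO and red for OGD/R+Rk2. GDF15 lies more than an order of magnitude above the rest in both groups, and in OGD/R+Rk2 the ADM2 libraries (8.95 to 11.5) reach the FGF19 libraries (9.18 to 9.43).

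The genes lie on different chromosomes or apart from each other in GRCh38 (GENCODE v29). STC2 is at chr5:173314713-173329503 on the minus strand, ADM2 at chr22:50481556-50486440 on the plus strand, GDF15 at chr19:18374731-18389176 on the plus strand and FGF19 at chr11:69698232-69704642 on the minus strand. FGF21 is at chr19:48755559-48758333 on the plus strand, and STC1 at chr8:23841915-23854807 on the minus strand. All are protein coding, and no exon of theirs overlaps an exon of another gene in that annotation, so counting without strand would not mix them with a neighbour.

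Promoter windows of RefSeq (GRCh38.p14) were held for 4 of the 6 genes (STC2, ADM2, GDF15 and FGF21) and for ADM. In the 250 bases before each start, 4 motifs were searched on both strands. TGATGNAA, the form of the C/EBP-ATF element to which ATF4 dimers bind, occurred in 3.14% of 35116 promoters, and the cyclic AMP element TGACGTCA in 1.65%. ACGTG, the core bound by hypoxia-inducible factors, occurred in 18.5%, and CCACG, a part of the endoplasmic reticulum stress element, in 33.5%. The last pair can overlap where a promoter reads CCACGTG.

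The C/EBP-ATF form was found in FGF21, 54 to 47 bases before the start, and CCACG in STC2 (221 to 217 bases before), ADM2 (224 to 220) and ADM (100 to 96). GDF15 held none of the 4. The 30 bases around each match are printed below, 5′ to 3′ on the gene's strand, with the match in capitals (read on the opposite strand, it is the motif as spelled above). STC2 and ADM2 are shown because both were higher under Rk2 by the same amount within their errors, ADM as the relative with no call, and FGF21 as the holder of the C/EBP-ATF match with almost no reads.
STC2, chr5:173328618-173328647, minus strand: cgcacgcaaacgCGTGGccgccgccaggtc
ADM2, chr22:50481307-50481336, plus strand: accccgctgcagCGTGGggaagtccggccc
ADM, chr11:10304961-10304990, plus strand: agcaggagcgcgCGTGGctgaggaaagaaa
FGF21, chr19:48755459-48755488, plus strand: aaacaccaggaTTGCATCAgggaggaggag
The stretches of STC2 and ADM lie within exons of longer transcripts of the same gene in GENCODE v29, and those of ADM2 and FGF21 in no exon. CCACG was present in STC2 and ADM2 and also in ADM, and a match of letters is not a bound site.

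The genes most like each hormone across the 8 libraries were sought among 12188 genes with a mean of at least 1 CPM, by the root mean square difference of centred log2 CPM values (smaller is more alike). This measure holds the difference between the groups, and is a description. For STC2 the closest gene of all was ADM2, at 0.0604, followed by DNAJB9 (a chaperone of the endoplasmic reticulum) at 0.0918 and SESN2 (a stress-induced regulator of mTORC1) at 0.122. For ADM2 the order was STC2, then SESN2 at 0.0966 and DNAJB9 at 0.10. GDF15 lay nearest to NR4A1 (an immediate-early nuclear receptor) at 0.0619, IDI1 (an enzyme of isoprenoid synthesis) at 0.0742 and ISL2 at 0.0753. FGF19 lay nearest to AKAP17A at 0.0474, TARS (the threonyl-tRNA synthetase) at 0.0650 and SELENOS at 0.0662. GDF15 was 0.415 from STC2, with 137 genes closer to STC2 than it was. Seen from GDF15, 6475 genes were closer than STC2, and the median distance of all genes compared was 0.407.

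The receptors, relatives and processing enzymes of these hormones formed a list of 29 genes, of which 9 had no row in the count table, 3 were below the filter and 17 were tested. Of the 17, 1 rose and 0 fell (5.88% and 0%, beside 11% and 7.24% of all genes). Their median log2 change was -0.02, beside -0.002 over all genes. The gene that rose was KLB, the co-receptor through which FGF19 acts, at 65.5 ± 5.02 CPM in OGD/R+DMSO and 79.6 ± 1.91 in OGD/R+Rk2 (SD, n = 4 each), a log2 change of 0.28 with adjusted p = 0.017 by edgeR. That call was lost without OGD/R+Rk2 replicate 2 or 4 (adjusted p = 0.051 for each), in limma on unfiltered FPKM (0.051) and after a correction for gene length (log2 change 0.11, adjusted p = 0.091).

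FGFR4, the main FGF19 receptor of hepatocytes, was the highest of the FGF receptors per length, at 127 ± 15.2 FPKM in OGD/R+DMSO and 122 ± 17.3 in OGD/R+Rk2. Its log2 difference of -0.09 did not pass (adjusted p = 0.23 by edgeR). FGFR1, FGFR2 and FGFR3 gave log2 differences of -0.18, 0.17 and -0.05, with adjusted p of 0.24, 0.64 and 0.58. On log2(FPKM + 1) those of FGFR1 and FGFR3 turned to 0.05 and 0.06. CYP7A1, the bile acid synthesis enzyme that FGF19 represses, was listed at 0 in every library.

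The adrenomedullin receptor CALCRL was below the filter, with 3, 0, 0 and 0 counts in OGD/R+DMSO and 8, 4, 0 and 2 in OGD/R+Rk2. Its partners RAMP1 and RAMP2 gave log2 differences of 0.11 and -0.13 (adjusted p = 0.60 and 0.80 by edgeR), and CALCR, the calcitonin receptor, 0.24 (adjusted p = 0.70). The RAMP2 difference was 0.07 without OGD/R+DMSO replicate 1 and 0.03 without OGD/R+Rk2 replicate 4, and that of FGFR2 was -0.003 without OGD/R+Rk2 replicate 1. GFRAL and RET, the receptor pair of GDF15, were listed at 0 in all libraries. For the axis of STC2, IGFBP4 had a log2 difference of -0.37 (adjusted p = 0.082 by edgeR). PAPPA, the gene of PAPP-A, gave -0.07 at 0.181 to 0.689 CPM, and PAPPA2 gave 0.32 at 0.743 to 1.34 CPM. None of these genes was called under any alternative, and IGFBP5 was listed at 0 in all libraries.

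Of 16 transcription factors known to act on these hormones' genes, 9 rose and 0 fell (56.2% and 0%, beside 11% and 7.24% of all genes). The median log2 change was 0.40. ATF4 transcripts had 514 ± 35.9 CPM in OGD/R+DMSO and 693 ± 13.4 in OGD/R+Rk2 (log2 change 0.43, adjusted p = 0.0019 by edgeR). Its dimer partner CEBPB changed by 0.65 (68.4 ± 3.47 to 107 ± 1.65 CPM, adjusted p = 0.00017) and HIF1A by 0.40 (219 ± 9.10 to 288 ± 6.59 CPM, adjusted p = 0.00086). The number that rose was 5 without OGD/R+Rk2 replicate 2, 3 or 4, and 7 after the correction for gene length.

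Of 18 other target genes of ATF4, 14 rose and 1 fell (77.8% and 5.56%, beside 11% and 7.24% of all genes). The median log2 change was 0.60. This list was chosen with earlier results of these data known, so its count and median are a description. ASNS, the asparagine synthetase, changed by 1.00 (217 ± 6.02 to 433 ± 7.88 CPM, adjusted p = 5.4e-06 by edgeR), DDIT4, an inhibitor of mTORC1, by 1.13 and PSAT1, an enzyme of serine synthesis, by 0.63 (adjusted p = 3.4e-05 for both). ATF5, itself a stress-induced transcription factor, fell by 0.44 (63.7 ± 3.89 to 47.0 ± 4.02 CPM, adjusted p = 0.0072). Beside this list, STC2, ADM2 and GDF15 lay above its median log2 change and FGF19 below it.

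Of 18 target genes of hypoxia-inducible factors, 1 rose and 0 fell (5.56% and 0%, beside 11% and 7.24% of all genes). Their median log2 change was -0.01. DESeq2 called 3 higher and 4 lower, and edgeR with the correction for gene length 0 higher and 3 lower. The gene that rose, P4HA1, an enzyme of collagen maturation, changed by 0.12 (adjusted p = 0.046 by edgeR and 0.013 by DESeq2), a call that was lost in edgeR with no filter on low counts (adjusted p = 0.057) and with any library but OGD/R+DMSO replicate 1 left out (adjusted p = 0.067 to 0.12). ADM, the relative of ADM2 that hypoxia induces, had no call either, as given above.

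**Figure D4:**
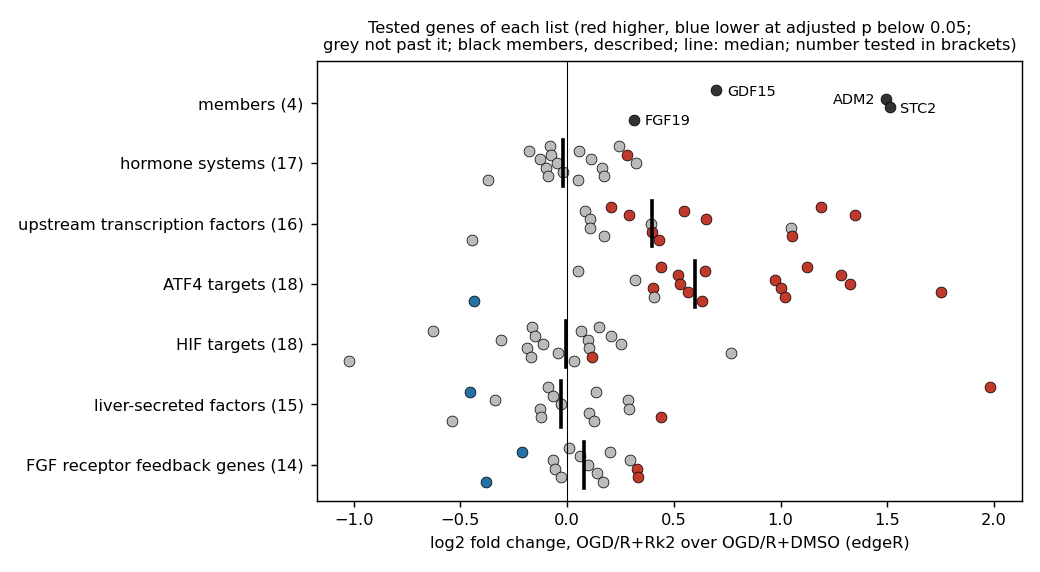
Log2 fold change of each tested gene (x axis), by list (y axis, with the number tested in brackets), red for higher and blue for lower at an adjusted p below 0.05, grey for genes not past it, black for the 4 measured hormones, which are shown as a description; a line marks each list's median. The ATF4 targets and transcription factors have medians of 0.60 and 0.40, and the remaining lists have medians between -0.03 and 0.08.

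Among 21 other factors that liver cells secrete, 15 were tested. Of these, 2 rose and 1 fell (13.3% and 6.67%, beside 11% and 7.24% of all genes), with a median log2 change of -0.03. INHBE, the inhibin beta E subunit, rose (log2 change 1.98, adjusted p = 5.4e-06 by edgeR). FST, the activin-binding follistatin, fell by 0.45 (adjusted p = 0.0074), a call that limma on filtered FPKM did not make (adjusted p = 0.11). The change of STC2 and ADM2 was thus below that of INHBE and above those of the other 14.

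Of 14 feedback and target genes of FGF receptor signalling, 2 rose and 2 fell (14.3% in each direction, beside 11% and 7.24% of all genes) and 10 had no call, with a median log2 change of 0.08. DUSP5 and ETV5 rose (log2 change 0.33 for each, adjusted p = 0.0035 and 0.0067 by edgeR), while DUSP6, an ERK phosphatase, fell by 0.38 (adjusted p = 0.0011) and CCND1 by 0.21 (adjusted p = 0.019). The calls for ETV5 and CCND1 were not made by limma on filtered FPKM (adjusted p = 0.11 for each), and that for CCND1 was lost without OGD/R+Rk2 replicate 3 (0.053) or 4 (0.057).

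Log2 changes rose with gene length over all genes (Spearman rho 0.388 across 12898 genes, which are not independent replicates). Lengths derived from counts and FPKM placed STC2 and ADM2 among the longer genes (5000 and 5111 bases, percentiles 79.4 and 80.7), FGF19 near the middle (2924 bases, 50.2) and GDF15 among the shorter (1423 bases, 13.2). These derived values are not annotated lengths. The exonic bases in GENCODE v29 were 6128 for STC2, 4276 for ADM2, 2447 for FGF19 and 2087 for GDF15. After a correction for this trend the log2 changes were 1.4 for STC2, 1.38 for ADM2, 0.81 for GDF15 and 0.30 for FGF19, so that of GDF15 was larger than without it. The part of gene length in these results was not otherwise tested.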

How the data were processed

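RNA from 8 HuH7 samples was sequenced from MGIEasy libraries made with 250 ng of total RNA. The submitters' processing notes name FastQC 0.11.5, HISAT2 2.2.1, StringTie 1.3.3 and the hg38 build. The counting tool, its strand setting and the annotation are not given in the sources used here. The authors deposited raw read counts per gene and, in a separate table, FPKM values, which are scaled by library size and gene length. The count table also held 22 symbols turned into dates (0.111% of counts), which were left out of library sizes and tests. They are within the total counts and the 15767 genes given above.

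The members and lists were chosen with earlier results of these data known. Counts were normalized by TMM, genes reaching 10 counts in 4 or more libraries were kept, and edgeR 4.0.16 (R 4.3.3) was fitted as a robust quasi-likelihood model on the 8 libraries, with Benjamini-Hochberg adjustment over the 12910 genes tested and a threshold of 0.05. CPM values are TMM-scaled, except the group levels of FGF21, which are counts over total counts. SD is over 4 libraries. A floor of 3 counts was used for a count of 0. Genes were named as the 6 members, the 3 genes most like each member, and the receptors and relatives of the hormones. By the same rule, up to 3 called genes of smallest p per list and direction were named. DDIT3, ATF3, ATF6, NR1H4, MLXIPL and SREBF2 in the closing section were chosen after their values were seen. So were CALCRL, GFRAL, RET, CYP7A1, IGFBP4, PAPPA, PAPPA2 and IGFBP5. The values of 1 gene that the rule names are not reported here. Alternatives were DESeq2 1.42.0 (the tool the study's methods name), no filter, at least 50 counts in every library, limma 3.58.1 on log2(FPKM + 1) and log2(FPKM + 0.1) for genes with a mean of at least 0.5 FPKM, the former also without that filter, a replicate block, a loess correction for gene length, and each library left out. Of these fits, only the main edgeR model was tested on simulated data. Replicate numbers carry no stated pairing. Total counts of 16374082 to 30310479 set the precision, and intervals on counts cover counting error only.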

Additional observations from a re-analysis of the deposited data

Results flagged for a closer look

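In 64 sets of 4 libraries, 5 held 1 library far from the other 3 (Dixon's ratio of gap to range above its 95% critical value, which chance passes in about 1 of 20 sets). For the hormones this touched the adrenomedullin pair. ADM in OGD/R+DMSO gave a ratio of 0.869, with replicate 1 at 12.2 CPM and the others at 19.4 to 20.5. The ratio of ADM2 to ADM counts in OGD/R+Rk2 gave 0.868, with replicate 3 at 4.95 and the others at 2.10 to 2.48. KLB in OGD/R+DMSO gave 0.830, with replicate 1 at 58.0 CPM and the others at 66.8 to 68.6. DDIT4 in OGD/R+DMSO gave 0.872, with replicate 1 at 61.3 CPM and the others at 55.3 to 56.0. ATF5 in OGD/R+Rk2 gave 0.903, with replicate 3 at 41.0 CPM and the others at 48.7 to 49.5. STC2, ADM2, GDF15 and FGF19 had no such library in either group.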

How the results depend on the processing

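The log2 changes of the 4 measured hormones were positive under all alternatives. Limma on log2(FPKM + 1), with or without its filter, gave 1.44 for STC2 and 1.34 for ADM2. On log2(FPKM + 0.1) it gave 1.52 and 1.56, and the correction for gene length gave 1.4 and 1.38. With each library left out in turn, STC2 ranged from 1.49 to 1.53, ADM2 from 1.44 to 1.53, GDF15 from 0.63 to 0.76 and FGF19 from 0.26 to 0.36. Over all genes, DESeq2 called 1691 higher and 1317 lower, limma on log2(FPKM + 1), on log2(FPKM + 0.1) and on unfiltered FPKM called 813, 799 and 707 higher and 311, 308 and 264 lower, and leaving out each library gave 863 to 1418 higher and 430 to 885 lower, beside 1417 and 935. Receptors and relatives had 0 higher in limma on unfiltered FPKM, 0 higher and 2 lower after the length correction, and 0 to 1 in each direction with a library left out. Transcription factors had 5 to 9 higher with a library left out. Among the 9, the calls for DDIT3, ATF3, MLXIPL and SREBF2 were lost in some of these fits. After the length correction 7 were higher. There the calls for ATF6 (adjusted p = 0.23 by edgeR), MLXIPL (0.0504) and SREBF2 (0.056) were lost and NR1H4 gained a call (0.036). Hypoxia targets had 3 higher and 4 lower in DESeq2, 0 higher without a filter, in the 3 limma fits, with the replicate block and after the length correction, 3 lower after that correction, and 0 to 1 in each direction with a library left out. Secreted factors had 0 lower in the 3 limma fits. FGF feedback genes had 1 higher and 1 lower in those fits, and 1 to 2 lower with a library left out. Apart from what these settings are built from, the cause was not tested. After subtraction of each gene's group mean from its log2 CPM, same-numbered libraries correlated at 0.016, -0.0095, 0.038 and 0.085. By this measure 1 of 4 OGD/R+DMSO libraries correlated best with its own number, and the numbers were not taken as pairs. With the replicate block 1143 genes were higher and 672 lower, and STC2 and ADM2 changed by 1.51 and 1.49. The ratios of STC2 to STC1 and of FGF19 to FGF21 have no alternative values, since STC1 is listed at 0 and FGF21 has at most 3 counts in a library.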
